A study of Arabidopsis thaliana and Brassica rapa with 28 samples.

Results

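The genes described here are 9 Arabidopsis thaliana genes known for higher transcript levels in darkness, sugar starvation, senescence or dormancy: SEN1 (AT4G35770), DIN2 (AT3G60140), ASN1 (AT3G47340, also named DIN6), DIN10 (AT5G20250), DIN11 (AT3G49620), DRM1 (AT1G28330), DRM2 (AT2G33830), BCAT2 (AT1G10070) and TPS8 (AT1G70290). They are 9 of the 33543 genes of the deposited Arabidopsis tables. They were taken by name, with their levels in all 4 groups already known, so these levels and the differences between them are a description and are not tested again here. RNA sequencing was done on whole seedlings 5 d old, grown on agar in continuous white light (W) and then given 4 h of shade, in which far-red light is enriched over red, or 4 h more of W.

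The CER6pro>>axr3-1::mCit seedlings, called CER6pro>>axr3-1 below, made axr3-1, a stabilised form of the auxin response repressor AXR3, fused to the fluorescent protein mCit. The promoter of CER6, a gene of wax synthesis, is active in the epidermis and directs where axr3-1 is made, while the RNA is that of all tissues of the seedling. Control seedlings were hemizygous for UAS::axr3-1::mCit, so the axr3-1 construct was present in all 4 groups. There were 4 libraries in each of the 4 groups: CER6pro>>axr3-1 in shade, CER6pro>>axr3-1 in W, control in shade and control in W. The comparison of light asks which transcripts answer to 4 h of shade, and the comparison of genotypes asks what changes when auxin response is held down in the epidermis. Of the 28 samples of the series, the other 12 are Brassica rapa libraries, whose tables carry identifiers that no source used here pairs with these genes, and they are not analysed here.

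Plants that run short of light and sugar switch on a set of genes that release carbon and nitrogen from stored compounds, proteins and cell walls. The kinase SnRK1, which is active when energy is low, raises many of them, and sucrose or glucose lowers them. Several were first found as dark-inducible (DIN) transcripts in detached or darkened leaves, and ASN1 is widely used as a marker of the low-energy state. The asparagine made by its enzyme carries nitrogen with little carbon. Shade rich in far-red light acts through phytochrome B and the PIF transcription factors.

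Stretches upstream of the gene start are shown for the genes whose transcripts were called different in 1 or more of the 4 comparisons of a single factor, as far as the stretch lies outside other genes. They were read from the RefSeq assembly TAIR10.1, 5′ to 3′ on the strand of the gene, ending at the base before the annotated start. Capitals mark matches to the motifs searched for on both strands. SEN1 is shown from chr4:16944678-16944877 (plus strand), BCAT2 from chr1:3287837-3288086 (plus strand), DIN11 from chr3:18393497-18393746 (plus strand) and DRM2 from chr2:14310609-14310858 (minus strand).
SEN1: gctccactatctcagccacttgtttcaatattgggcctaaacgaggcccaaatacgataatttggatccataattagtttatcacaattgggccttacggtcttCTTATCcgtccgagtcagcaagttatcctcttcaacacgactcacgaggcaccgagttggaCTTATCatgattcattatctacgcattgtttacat
BCAT2: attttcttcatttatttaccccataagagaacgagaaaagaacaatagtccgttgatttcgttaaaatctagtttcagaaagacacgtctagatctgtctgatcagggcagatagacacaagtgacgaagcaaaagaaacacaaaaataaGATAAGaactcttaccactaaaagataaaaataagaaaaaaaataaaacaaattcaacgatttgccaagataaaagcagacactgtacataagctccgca
DIN11: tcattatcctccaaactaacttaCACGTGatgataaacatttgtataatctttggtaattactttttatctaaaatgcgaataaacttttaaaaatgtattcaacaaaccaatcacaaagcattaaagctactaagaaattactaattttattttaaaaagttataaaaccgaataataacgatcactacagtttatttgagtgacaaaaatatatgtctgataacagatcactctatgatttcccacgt
DRM2: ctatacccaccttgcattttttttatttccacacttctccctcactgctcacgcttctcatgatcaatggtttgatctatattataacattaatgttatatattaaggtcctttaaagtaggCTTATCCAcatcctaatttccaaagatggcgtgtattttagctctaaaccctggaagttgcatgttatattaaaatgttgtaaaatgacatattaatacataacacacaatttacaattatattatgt
The upstream stretch of DRM1 overlaps the annotated gene AT1G09025 in all but 6 of its 250 bases and is not shown. That of SEN1 overlaps AT4G35760, and its 200 bases outside that gene are shown.

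The capitals in SEN1 and BCAT2 are the I-box core GATAAG or its reverse complement CTTATC, a motif known from light-regulated promoters. SEN1 has it 96 and 35 bases before the start (first base of the match), and BCAT2 has it 100 bases before the start. The capitals in DIN11 are CACGTG, the G-box bound by bZIP and PIF transcription factors. In DRM2 the I-box match overlaps TATCCA, the sugar-starvation element known from alpha-amylase promoters of rice, so that both share letters of 1 run. Over the full 250 bases upstream, the I-box core was found in 6 of the 9 genes (SEN1, ASN1, DRM1, DRM2, BCAT2 and TPS8) and in 12.3% of the 27443 promoters of the same length. The G-box was found in ASN1 and DIN11 and in 6.49% of all promoters. TATCCA was found in ASN1 and DRM2 and in 13.6% of all promoters. ACTCAT, an element known from the promoter of a proline dehydrogenase gene and bound by bZIP factors, was found in DRM1 and in 12.3% of all promoters. CATGTG, an E-box bound by PIFs, was in 0 of the 9 genes and in 11.1% of all promoters, and TGTCTC, the auxin response element, in 0 of the 9 and in 10.9%. These matches are descriptions of letters in a window. Among the genes with stretches shown, BCAT2 and DIN11 have the same start in the authors' tables, while SEN1 and DRM2 do not. There SEN1 starts at base 16944941 of chromosome 4 and the minus-strand gene DRM2 at base 14310376 of chromosome 2. The windows of SEN1 and DRM2 would thus move with that annotation.

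Levels are FPKM, sequenced fragments per length of transcript and per number of mapped fragments. Each gene has 1 value per group, which the authors' Cuffdiff run pooled over the 4 libraries, so the depth of a library and the spread between libraries are unknown. Higher or lower is a call where the authors' deposited table has a q under 0.05. The ± after a log2 fold is a standard error derived from the deposited test statistic. Whether libraries within a group are separate cultures is not in the labels, so the deposited p and q measure only the spread between these libraries, which may be technical. At an FPKM of 1 or more there were between 19982 and 20097 genes per group, and the top 10 genes made up 11.01 to 14.98% of all FPKM. AXR3, whose sequence the transgene shares, had 112 FPKM in CER6pro>>axr3-1 in shade and 113 in W, against 37.1 in control in shade and 47.1 in W, and was called higher in CER6pro>>axr3-1 in both lights. Reads of the transgene and of the endogenous gene cannot be told apart. All 9 of the shoot, root and epidermis markers had an FPKM above 1 in every group. Because whole seedlings were sequenced, fewer cells of a type and less RNA per cell cannot be told apart.

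**Figure D1:**
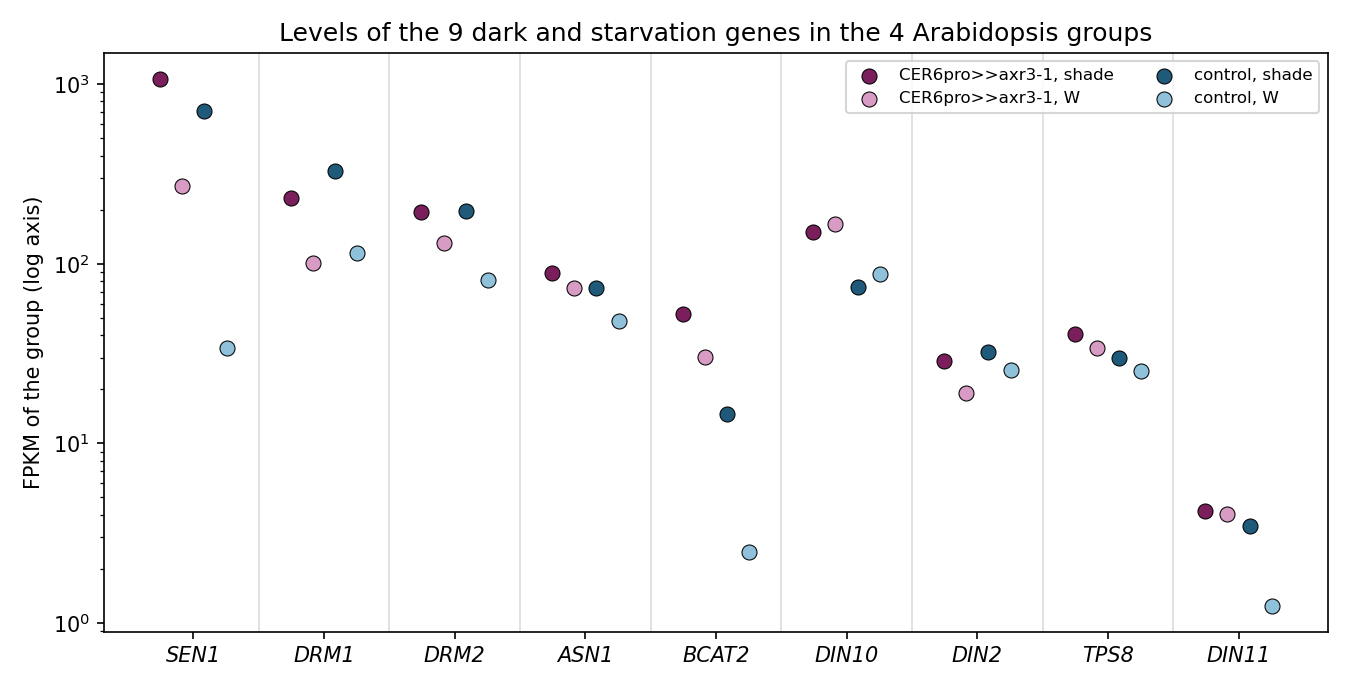
FPKM (log axis) of the 9 genes, 1 point per group, each pooled by the authors over 4 libraries, so no error bar can be drawn. SEN1 and BCAT2 span the widest ranges, with control in W at 34.2 and 2.48 FPKM and CER6pro>>axr3-1 in shade at 1063 and 52.4 FPKM.

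SEN1, whose transcript is the classic mark of dark-treated and senescing leaves and whose protein has a rhodanese-like domain, was the most abundant of the 9 in 3 of the 4 groups and the most variable. SEN1 had 1063 FPKM in CER6pro>>axr3-1 in shade and 271 in W, against 711 in control in shade and 34.2 in W. Control in W stood far below the other groups. SEN1 ranked 73 in abundance among all genes in CER6pro>>axr3-1 in shade and 453 in W, against 113 in control in shade and 4299 in W. The level in CER6pro>>axr3-1 in shade was 31.1-fold that of control in W. Of the neighbours in this order, CER6pro>>axr3-1 in shade and control in shade were not called different (q = 0.625 in the authors' deposited table), and both lower steps were called (q = 0.00309 each in the authors' deposited tables).

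SEN1 rose in shade in both genotypes, with the smaller fold in CER6pro>>axr3-1, where the level in W was higher than in control. Shade over W was 3.93-fold in CER6pro>>axr3-1, a log2 fold of 1.97 ± 0.28. It was 20.8-fold in control, a log2 fold of 4.38 ± 0.23. In W, CER6pro>>axr3-1 was 7.92-fold above control, a log2 fold of 2.99 ± 0.24. In shade the same comparison gave 1.49-fold, a log2 fold of 0.58 ± 0.27, and was not called. The 3 called folds of SEN1 are at the smallest p the authors' table holds, 5e-05. Taken from that p in place of the statistic, the standard error would be at most 0.49, 1.08 and 0.74 for these 3 folds, in the order given.

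BCAT2, a branched-chain amino acid aminotransferase that acts on leucine, isoleucine and valine, had its highest levels in CER6pro>>axr3-1. BCAT2 had 52.4 FPKM in CER6pro>>axr3-1 in shade and 30.2 in W, against 14.6 in control in shade and 2.48 in W. Both CER6pro>>axr3-1 groups lay above both control groups. No neighbours in this order were called different, with q = 0.986 in the authors' deposited table between CER6pro>>axr3-1 in W and control in shade. In W the level in CER6pro>>axr3-1 was 12.2-fold that of control, a log2 fold of 3.61 ± 0.56, called with q = 0.00309 in the authors' deposited table. In shade the genotype fold was 3.59, a log2 fold of 1.84 ± 0.50, with p = 0.048 and q = 0.536 in the authors' deposited table. That p corresponds to a wider standard error of 0.93, and the fold in shade was not called. Shade over W was 0.79 ± 0.46 on the log2 scale in CER6pro>>axr3-1 and 2.56 ± 0.59 in control, neither called, the second with q = 0.0679 in the authors' deposited table. Taken from the authors' p, the standard errors of these shade folds would be wider, 0.80 in CER6pro>>axr3-1 and 0.84 in control. That of the genotype fold in W, whose p is the smallest the table holds, would be at most 0.89.

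The end of BCAT2 overlaps AT1G10090, a gene on the opposite strand, by 161 bases, and both have the same locus in the authors' tables. AT1G10090 had 11.8 FPKM in CER6pro>>axr3-1 in shade and 10.4 in W, against 12.7 in control in shade and 11.8 in W, and was above BCAT2 in control in W only. The libraries were stranded, but no source used here gives the strand setting of the counting, and its part in the low values of BCAT2 was not tested.

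ASN1, glutamine-dependent asparagine synthetase, was not called in any of the 4 comparisons, and 3 of its 4 groups had much the same level. ASN1 had 88.5 FPKM in CER6pro>>axr3-1 in shade and 72.9 in W, against 73.3 in control in shade and 47.9 in W. Control in W was the lowest of the 4 groups and the other groups lay within 1.21-fold of each other. The log2 fold of shade over W was 0.28 ± 0.38 in CER6pro>>axr3-1 and 0.61 ± 0.32 in control. That of CER6pro>>axr3-1 over control was 0.27 ± 0.37 in shade and 0.60 ± 0.35 in W. The authors' unadjusted Cuffdiff p was 0.032 for shade in control and 0.0388 for genotype in W. None of the steps between neighbours in the order of its levels was called.

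DRM1 and DRM2 encode small dormancy-associated proteins whose transcripts are high in buds and tissues that are not growing. DRM1 had 231 FPKM in CER6pro>>axr3-1 in shade and 101 in W, against 329 in control in shade and 115 in W. Both shade groups lay above both W groups. DRM1 was called higher in shade in both genotypes, with a log2 fold of 1.19 ± 0.44 in CER6pro>>axr3-1 (q = 0.0101 in the authors' deposited table) and 1.51 ± 0.37 in control (q = 0.00309 in the authors' deposited table). It had values below 0 for CER6pro>>axr3-1 over control in both lights, -0.51 ± 0.43 in shade and -0.19 ± 0.38 in W, neither called. Taken from the authors' p, the standard error would be 0.31 for each of these, and 0.32 for the shade fold in CER6pro>>axr3-1.

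DRM2 had 194 FPKM in CER6pro>>axr3-1 in shade and 129.9 in W, against 197 in control in shade and 81.5 in W. Its shade levels were nearly equal in the 2 genotypes and control in W was lowest. The log2 fold of shade over W was 0.58 ± 0.58 in CER6pro>>axr3-1, not called, and 1.28 ± 0.38 in control, called. CER6pro>>axr3-1 over control was -0.03 ± 0.57 in shade and 0.67 ± 0.42 in W, neither called. Taken from the authors' p, the standard errors of these genotype folds would be 0.30 in shade and 0.28 in W. That of the shade fold in CER6pro>>axr3-1 would be 0.33. In the order of the 4 levels of DRM2, no step between neighbours was called.

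DIN11, a member of the 2-oxoglutarate-dependent dioxygenases, was the rarest of the 9. DIN11 had 4.18 FPKM in CER6pro>>axr3-1 in shade and 4.03 in W, against 3.46 in control in shade and 1.25 in W. Control in W was the lowest, and the other 3 groups were close to each other. CER6pro>>axr3-1 over control was 1.69 ± 0.40 in W, called with q = 0.0178 in the authors' deposited table, and 0.27 ± 0.35 in shade, not called. Shade over W was 0.05 ± 0.33 in CER6pro>>axr3-1 and 1.47 ± 0.41 in control, the second with q = 0.0668 in the authors' deposited table. At these low levels the folds depend on the scale: with a pseudocount of 1 FPKM the fold in W between genotypes became 1.16 and that of shade in control 0.99 on the log2 scale.

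DIN10, of the raffinose synthase family, was the gene of the 9 that showed no higher level in shade in either genotype. DIN10 had 151 FPKM in CER6pro>>axr3-1 in shade and 167 in W, against 73.9 in control in shade and 87.8 in W. Both CER6pro>>axr3-1 groups lay above both control groups. The log2 fold of CER6pro>>axr3-1 over control was 1.03 ± 0.52 in shade (p = 0.0108, q = 0.211 in the authors' deposited table) and 0.92 ± 0.39 in W (p = 0.0071, q = 0.159 in the authors' deposited table), so neither passed the adjustment. Shade over W was -0.15 ± 0.56 in CER6pro>>axr3-1 and -0.25 ± 0.32 in control. No neighbours in the order of the levels of DIN10 were called different. DIN10 overlaps AT5G20260 by 82 bases on the opposite strand, and AT5G20260 had at most 0.48 FPKM in any group.

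DIN2, a beta-glucosidase that can release sugar from cell-wall and stored glucosides, and TPS8, a class II trehalose-phosphate synthase protein of the trehalose-6-phosphate family, moved least. DIN2 had 28.7 FPKM in CER6pro>>axr3-1 in shade and 19.1 in W, against 32.1 in control in shade and 25.5 in W. Its lowest group was CER6pro>>axr3-1 in W. Its shade fold was 0.59 ± 0.20 in CER6pro>>axr3-1 and 0.33 ± 0.21 in control on the log2 scale, and neither was called. TPS8 had 40.6 FPKM in CER6pro>>axr3-1 in shade and 34.1 in W, against 29.8 in control in shade and 25.3 in W. Its highest and lowest groups differed by 1.60-fold. CER6pro>>axr3-1 over control in TPS8 was 0.44 ± 0.23 in shade and 0.43 ± 0.22 in W on the log2 scale, and no step between neighbours was called for either gene.

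**Figure D2:**
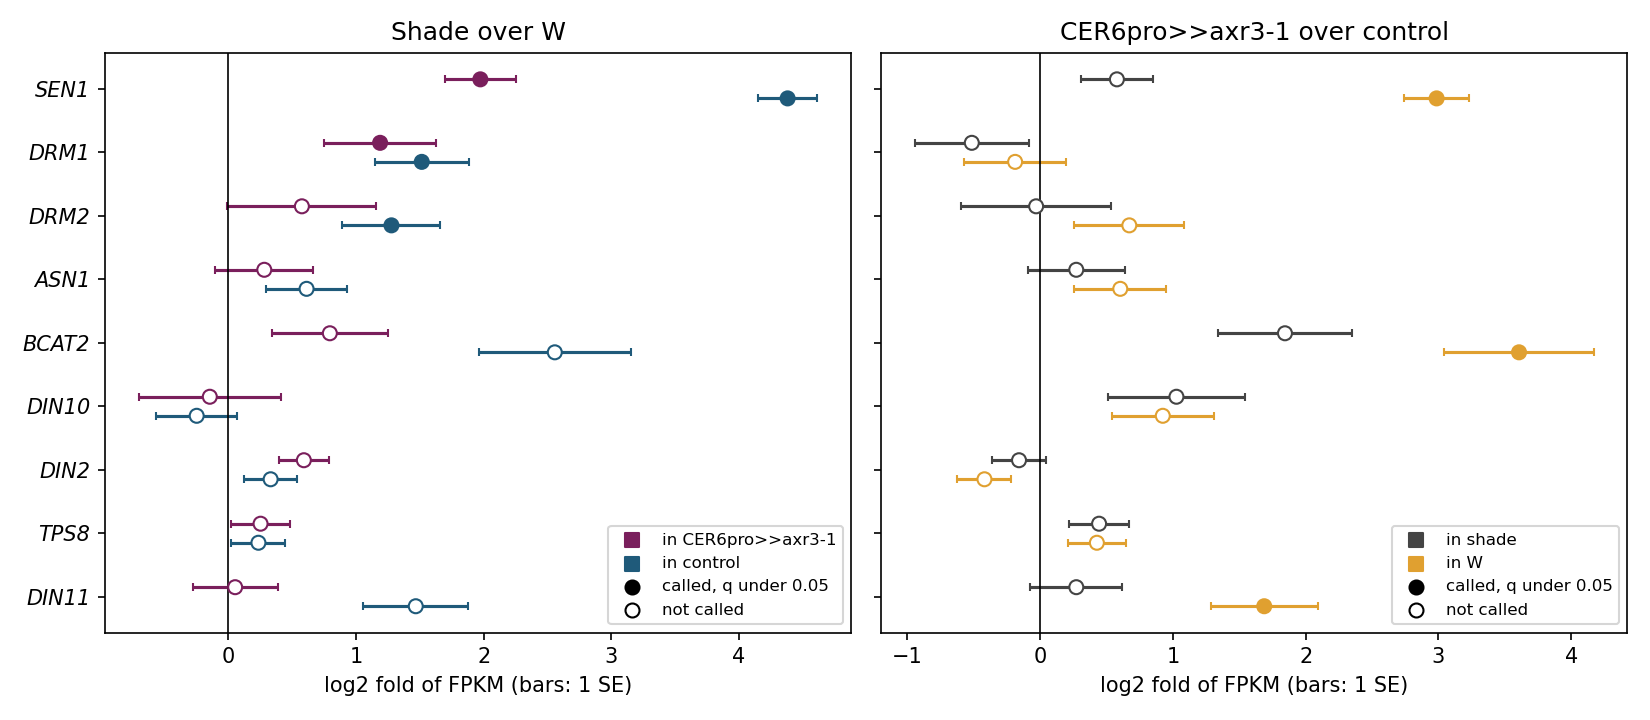
Log2 folds of FPKM for the 9 genes, shade over W on the left and CER6pro>>axr3-1 over control on the right; points are the folds, bars 1 standard error derived from the deposited statistic, and filled points are called at a q under 0.05. SEN1 has the longest shade fold in both genotypes, 1.97 in CER6pro>>axr3-1 and 4.38 in control, and BCAT2 the longest genotype fold in W, 3.61.

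Counted over the 9 genes, all of which the authors marked as tested in every table, shade was called higher for 2 in CER6pro>>axr3-1 (SEN1 and DRM1) and for 3 in control (SEN1, DRM1 and DRM2). By the authors' Cuffdiff test, 3 had an unadjusted p under 0.05 in CER6pro>>axr3-1 and 6 in control. The share of all tested genes at that unadjusted p was not counted, here or for the later counts of this kind. The percentages called are at a q under 0.05 and are not a measure for them. Over all tested genes, 2.52% were called in CER6pro>>axr3-1, 0.778% higher, and 2.85% in control, 1.24% higher. The median log2 fold of shade over W was 0.58 over the 9 genes and 0.02 over all tested genes in CER6pro>>axr3-1, against 1.28 and 0.00 in control. In each genotype 8 of the 9 lay above 0, as did 53.4% of all tested genes in CER6pro>>axr3-1 and 50.7% in control. The genes were chosen with these values known, so nothing is read from the shares.

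Between genotypes, 0 of the 9 were called in shade in the authors' Cuffdiff table, with 2 (BCAT2 and DIN10) at an unadjusted p under 0.05. In W, 3 were called higher in CER6pro>>axr3-1 (SEN1, BCAT2 and DIN11), and 7 of the 9 had an unadjusted p under 0.05. No share of all tested genes at that unadjusted p stands beside these counts. Over all tested genes, 1.25% were called in shade and 2.16% in W, of which 1.46% of genes were higher. The median log2 fold of CER6pro>>axr3-1 over control was 0.27 for the 9 genes and 0.01 for all tested genes in shade, and 0.67 and 0.01 in W. DRM1 and DIN2 were the members with values below 0 in both lights. The last pairs of groups differ in light and genotype together. CER6pro>>axr3-1 in shade over control in W was called higher for 5 of the 9 (SEN1, BCAT2, DIN11, DRM2 and DRM1), where 4.75% of all tested genes were called and 2.49% were higher. Control in shade over CER6pro>>axr3-1 in W was called higher for 3 (SEN1, DRM1 and DIN2) and lower for DIN10, where 3.94% of all tested genes were called, 1.21% higher and 2.73% lower. For DIN2 and DIN10 these were the only calls among the 6 pairs of groups, with log2 folds of 0.75 ± 0.20 and -1.17 ± 0.42, and ASN1 and TPS8 had none. Each of the 4 groups stands in several of these pairs, so the counts are not separate results. The shade comparison in control and the genotype comparison in W use the same control W libraries, so a low value there raises both folds, and the 2 are only given side by side: 4.38 and 2.99 for SEN1, 2.56 and 3.61 for BCAT2, 1.47 and 1.69 for DIN11, 1.28 and 0.67 for DRM2, 0.61 and 0.60 for ASN1.

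Of the 3 epidermis markers, 1 was called between genotypes in W. The summed level of the 3 markers ATML1, PDF1 and CER6 was 513 FPKM in CER6pro>>axr3-1 in shade and 412 in W, against 624 in control in shade and 715 in W, with none at 0. PDF1, an epidermal protodermal factor, was called lower in CER6pro>>axr3-1 in W, with 202 FPKM against 411 in control, a log2 fold of -1.03 ± 0.27. ATML1 and CER6 were not called there, with -0.39 ± 0.25 and -0.55 ± 0.29. The 3 root markers summed to 1451 FPKM in CER6pro>>axr3-1 in shade and 1826 in W, against 1473 in control in shade and 2411 in W, and none of them was called. Nearly all of the root sum was PYK10, with 2364 FPKM in control in W. PHT1-1 and COBL9 were also highest there, at 37.9 and 9.71 FPKM. The 3 shoot markers summed to 23613 FPKM in CER6pro>>axr3-1 in shade and 23899 in W, against 19070 in control in shade and 21375 in W. Most of the shoot sum was RBCS1A, from 15647 FPKM in control in shade to 20077 in CER6pro>>axr3-1 in W. Of the shoot markers, the plastocyanin gene AT1G76100 was called lower in shade in control, with a log2 fold of -0.91 ± 0.19. Control in W, the highest group in the root and epidermis sums, was the lowest group for 6 of the 9 genes, and the part of these markers in the results was not tested.

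Of the 9 members, SEN1, BCAT2 and DIN11 had the lowest values of the shade fold in CER6pro>>axr3-1 minus that in control. For SEN1 it was -2.41 ± 0.36 on the log2 scale. Taken from the p-values, which are the smallest the tables hold, its standard error would be at most 1.18. For BCAT2 it was -1.76 ± 0.75 and for DIN11 -1.41 ± 0.53, with standard errors from the p-values of 1.15 and 0.58. DRM2 had -0.70 ± 0.70, and ASN1 and DRM1 had -0.33 ± 0.50 and -0.33 ± 0.57. Their standard errors from the p-values were smaller, at most 0.46 for DRM2, 0.42 for ASN1 and at most 0.49 for DRM1. The p of DRM1 and DRM2 for shade in control is the smallest the table holds. TPS8, DIN10 and DIN2 had values near or above 0, at 0.02 ± 0.31, 0.10 ± 0.64 and 0.26 ± 0.29, and the sign for TPS8 flipped when the groups were rescaled to a median log2 fold of 0. The members' median was -0.33, against 0.01 over 19990 genes, and 6 of 9 members lay below 0, as did 47.8% of all genes. By arithmetic this difference equals the genotype fold in shade minus that in W, which for SEN1 is 0.58 minus 2.99, so a raised level in W lowers it without any lower level in shade. It is given as a description, because the genes were chosen on these 4 values.

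By the root mean square difference from SEN1 of log2 FPKM centred on the mean over the 4 groups, 5 genes outside the 9 were most alike to SEN1 among the 14349 genes that reached 5 FPKM in every group. They were ADS1 (AT1G06080), a delta 9 desaturase, at 0.51; AT1G73120, annotated by RefSeq as an F-box protein, at 0.61; ST2A (AT5G07010), a sulfotransferase, at 0.73; AT5G02760, annotated as a protein phosphatase 2C, at 0.78; and IAA19 (AT3G15540), an auxin-induced repressor, at 0.87. The median over all compared genes was 1.91. ADS1 had 92.0 FPKM in CER6pro>>axr3-1 in shade and 27.8 in W, against 89.5 in control in shade and 7.60 in W. ST2A had 194 FPKM in CER6pro>>axr3-1 in shade and 24.9 in W, against 258 in control in shade and 8.47 in W. As in SEN1, control in W was the lowest group in each of these genes.

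Of the other members, DRM2 ranked 87, DRM1 152, ASN1 305, TPS8 756, DIN2 2710 and DIN10 3140 in likeness to SEN1, and DIN11 and BCAT2 did not reach the FPKM minimum. The 5 most alike genes, chosen for their pattern over these groups, were all called higher in shade in control and higher in CER6pro>>axr3-1 in W. AT5G02760 was the one not called between shade and W in CER6pro>>axr3-1, with a log2 fold of 0.69 ± 0.31. IAA19 was the one called between genotypes in shade, with 64.2 FPKM in CER6pro>>axr3-1 and 29.7 in control. Likeness over 4 pooled values is a ranking only.

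**Figure D3:**
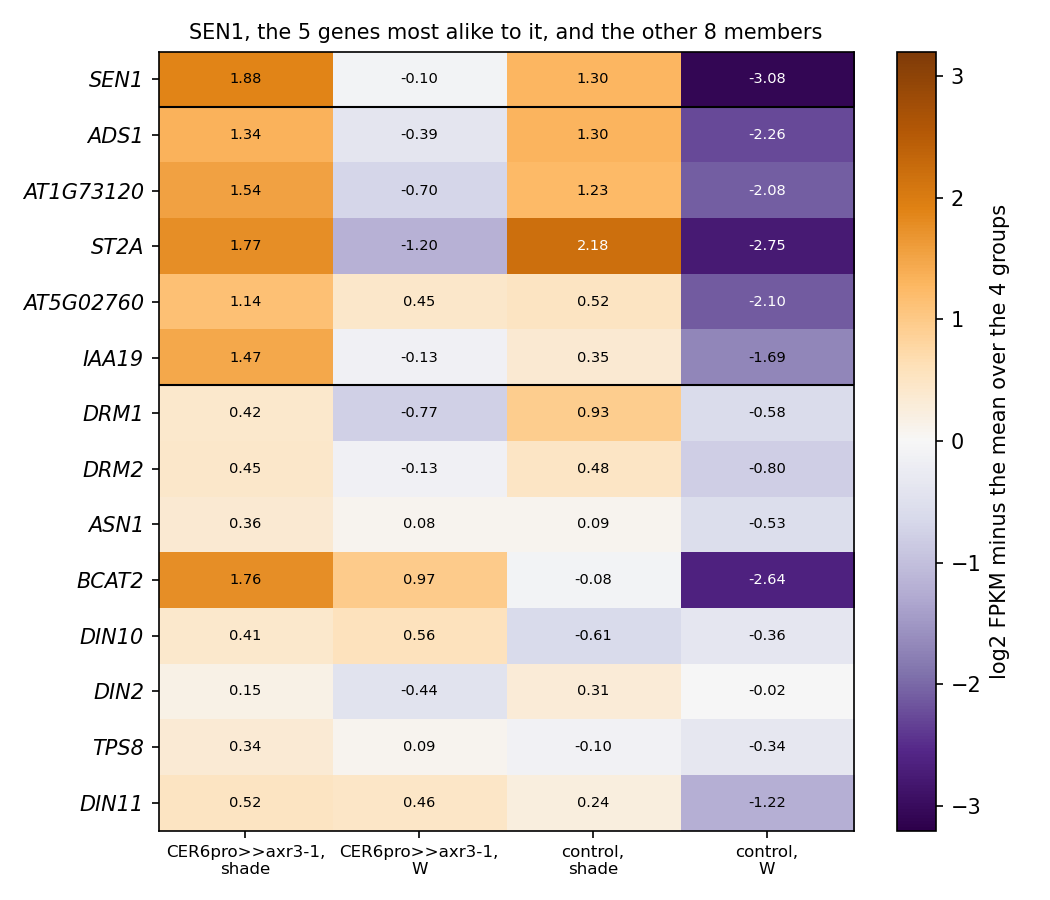
Log2 FPKM minus the gene's mean over the 4 groups (colour and printed value) for SEN1, the 5 genes most alike to it by root mean square difference and the other 8 members, with the groups from left to right. SEN1 runs from 1.88 in CER6pro>>axr3-1 in shade to -3.08 in control in W, and DRM1 has its highest value, 0.93, in control in shade.

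Other genes of the pathways were taken as 7 lists with 92 genes, also chosen with earlier results known. The family copies of the 9 genes were 29, of which 22 were tested. In control, 4 were called higher in shade and 0 lower. BCAT1, a second branched-chain aminotransferase, had 22.3 FPKM in shade and 8.80 in W, a log2 fold of 1.34 ± 0.25. TPS10, TPS11 and TPS6, class II relatives of TPS8, had log2 folds of 0.86 ± 0.23, 0.78 ± 0.22 and 0.73 ± 0.22. The median over the tested family copies was -0.18, against 0.00 over all tested genes, and 8 of the 22 lay above 0. In CER6pro>>axr3-1, 0 were called higher in shade and 2 lower. These were BGLU28, a relative of DIN2, with 0.656 FPKM in shade and 3.46 in W, and TPS5, with 10.01 FPKM in shade and 17.6 in W.

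Between genotypes in shade, BCAT1 was called and its relative BCAT2 was not. BCAT1 had 12.3 FPKM in CER6pro>>axr3-1 and 22.3 in control, a log2 fold of -0.85 ± 0.24, called lower, while BCAT2 had 1.84 ± 0.50, not called. TPS11 was called higher in CER6pro>>axr3-1 in W, with 29.6 FPKM against 14.8 in control, where TPS8 had 34.1 against 25.3.

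Other dark-inducible and branched-chain amino acid catabolism genes, 10 in the list and all tested, lay mostly above 0. In control, 2 were called higher in shade and the median log2 fold was 0.54. IVD, isovaleryl-CoA dehydrogenase of leucine breakdown, had 30.5 FPKM in shade and 14.5 in W, a log2 fold of 1.07 ± 0.22. AT1G21400, annotated by RefSeq as a thiamin diphosphate-binding protein, had 24.9 FPKM in shade and 10.1 in W, a log2 fold of 1.30 ± 0.22. In CER6pro>>axr3-1, 0 were called by the authors' Cuffdiff test, 3 had an unadjusted p under 0.05, and the median was 0.41. Between genotypes all 10 lay above 0 in both lights, with medians of 0.38 in shade and 0.53 in W. Over all tested genes 52.7% lay above 0 in shade and 51.0% in W, and both medians were 0.01. AT1G21400 was called higher in CER6pro>>axr3-1 in shade, with 55.5 FPKM against 24.9 in control, and in W, with 34.3 against 10.1. IVD was called higher in W, with 30.9 FPKM in CER6pro>>axr3-1 and 14.5 in control. Between genotypes the list thus held 1 call in shade and 2 in W, all higher in CER6pro>>axr3-1.

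SnRK1 subunits and their bZIP partners, 10 of 12 present and tested, had medians of 0.06 for shade over W in CER6pro>>axr3-1 and 0.01 in control. KINB1, a beta subunit of SnRK1, was called higher in shade in control, with 53.2 FPKM in shade and 30.9 in W, a log2 fold of 0.78 ± 0.29. It was the one call of this list in the 4 comparisons. Of this list, bZIP1 and bZIP11 are not analysed here.

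In the amino acid catabolism and nitrogen recycling list, 8 genes were tested and PPDK was the one called. PPDK, pyruvate orthophosphate dikinase, which serves nitrogen export from ageing leaves, was called higher in CER6pro>>axr3-1 in both lights, with 52.03 FPKM against 23.6 in control in shade and 55.1 against 23.5 in W. Its log2 folds were 1.14 ± 0.32 in shade and 1.23 ± 0.28 in W. Among 11 senescence and chlorophyll breakdown genes, 10 were tested. ORE1, a NAC factor that promotes leaf senescence, was called higher in CER6pro>>axr3-1 in both lights, with 33.2 FPKM against 14.7 in control in shade and 21.6 against 10.4 in W. SAG12, the protease marker of late senescence, was listed at 0 in all 4 groups. For shade over W neither list held a call in either genotype, with 1 amino acid gene and 2 senescence genes at an unadjusted p under 0.05 in CER6pro>>axr3-1, and 0 and 1 in control.

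The starch and sugar list, 13 genes, held calls in both directions. GBSS1, granule-bound starch synthase, was called lower in shade in both genotypes, with 15.3 FPKM in shade and 45.2 in W in CER6pro>>axr3-1, and 15.7 in shade and 47.5 in W in control. STP1, a hexose transporter of the plasma membrane, was called higher in shade in control, with 79.8 FPKM in shade and 33.9 in W. STP1 was also called higher in CER6pro>>axr3-1 in W, with 61.6 FPKM against 33.9 in control. GWD1, which phosphorylates starch for breakdown, was called lower in CER6pro>>axr3-1 in both lights, with 40.8 FPKM against 72.6 in control in shade and 38.6 against 71.7 in W. In shade, BAM3, a plastid beta-amylase, was called lower in CER6pro>>axr3-1, with 40.2 FPKM against 73.3 in control, and TRE1, trehalase, higher, with 8.24 against 4.52. The calls of GWD1 and TRE1 in shade were lost when p was adjusted within that table alone.

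The ATG8 list, ubiquitin-like proteins of autophagy, had 8 of 9 genes tested and 0 called in any of the 4 comparisons, with at most 1 gene at an unadjusted p under 0.05. All 8 lay above 0 for shade over W in both genotypes, with medians of 0.17 in CER6pro>>axr3-1 and 0.29 in control. Over the 7 lists together, shade was called for 3 of 81 tested genes in CER6pro>>axr3-1, all lower, and for 9 of 80 in control, 8 of them higher. These are 3.7% and 11.2% of the tested list genes, where 2.52% and 2.85% of all tested genes were called. CER6pro>>axr3-1 over control was called for 7 of 80 in shade, 4 higher, and for 7 of 81 in W, 6 higher. These are 8.75% and 8.64% of the tested list genes, where 1.25% and 2.16% of all tested genes were called. The difference of the shade folds between genotypes was tested for 80 list genes with a z test on the folds and their standard errors, and 0 had an adjusted p under 0.05 over the 19990 genes, with 2 (BGLU28 and BCAT1) at an unadjusted p under 0.05. By the same test and adjustment 124 of the 19990 genes passed, with standard errors taken from the statistic. The count with standard errors from p was not made. The 19990 genes include the members, for which this test is not reported because they were chosen on these values.

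**Figure D4:**
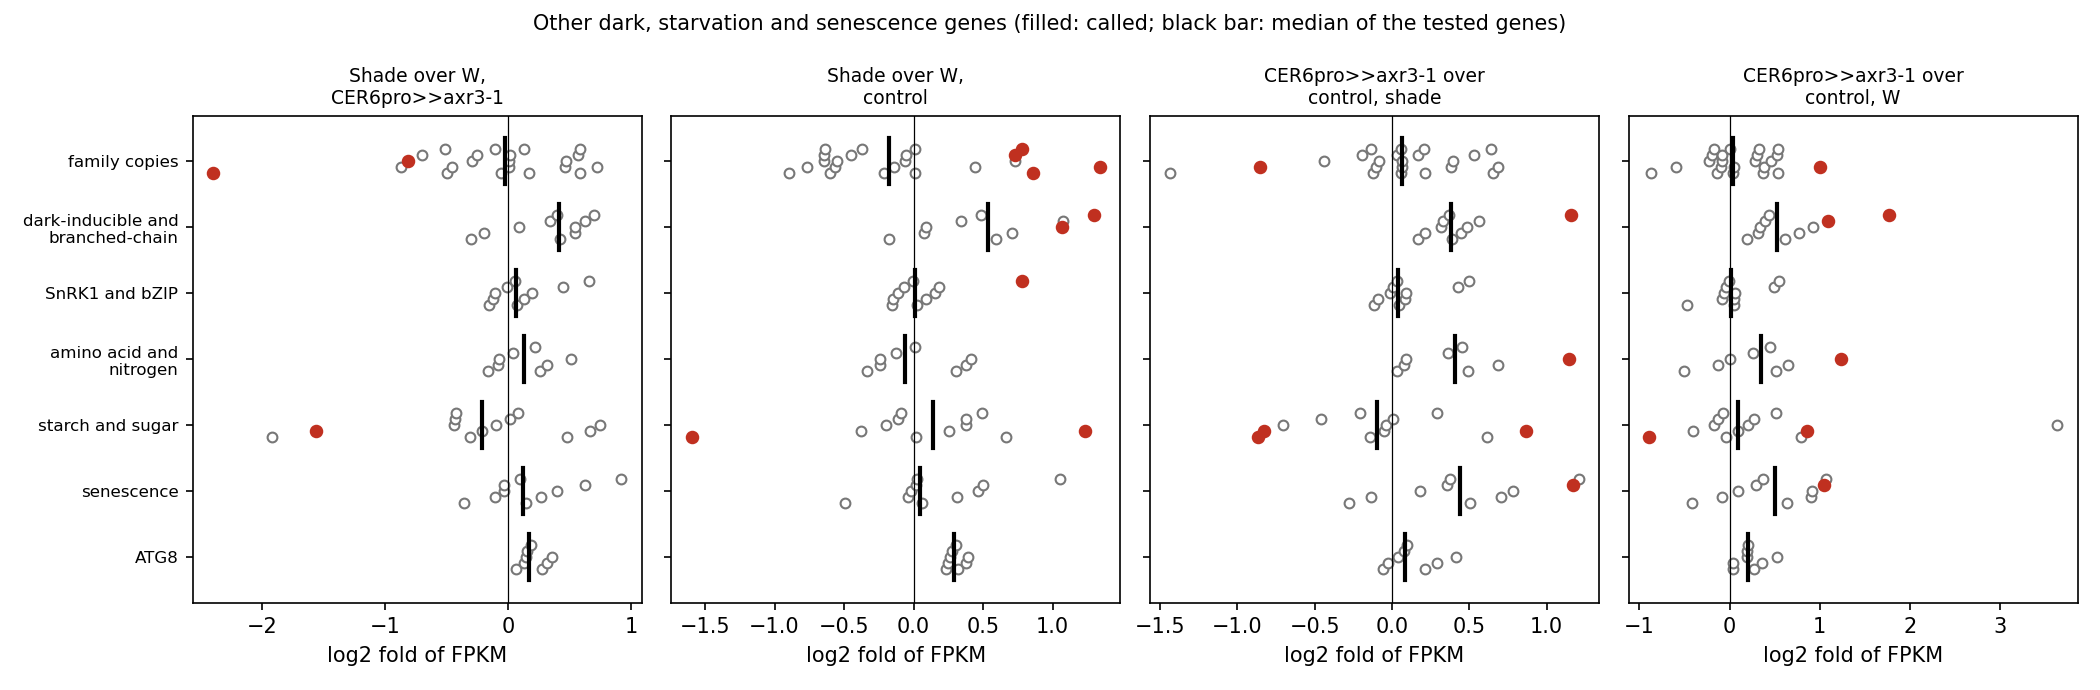
Log2 folds of FPKM for the tested genes of the 7 other lists (1 point per gene, filled where called at a q under 0.05, black bar the list median) in the 4 comparisons; the horizontal scales differ between panels. In control the dark-inducible and branched-chain list has its median at 0.54 for shade over W, and the ATG8 genes cluster between 0 and 0.5 with 0 called.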

How the data were processed

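Sequencing was of polyadenylated RNA in stranded libraries read as single ends of 50 bases, per the labels' protocols. Per the submitters' processing notes, bases were called with CASAVA 1.8.2, reads aligned with TopHat2 2.0.9 and Bowtie2 2.1.0 to TAIR10, and levels estimated with Cufflinks and Cuffdiff, with versions not given in the sources used here. Each deposited FPKM is 1 value per group, pooled by the authors over 4 libraries. The score column is the Cuffdiff statistic the authors deposited for each pair of groups, and the p-value and q-value are the authors' deposited ones. Log2 folds were computed here from the group FPKM without a pseudocount. Their standard error is the size of the fold divided by the statistic, times a factor of 0.558 to 0.564 that scales the statistic to the normal deviate implied by p, taken as the median over genes with p from 0.001 to 0.5. The step was tested on simulated data in which the same factor held for every gene. That check cannot show whether the same factor holds for every gene of these data. For BCAT2 between genotypes in shade, the standard error was 0.50 from the statistic and 0.93 from p. Depth per library is unknown, so no precision from depth can be stated.

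The members and lists were chosen with earlier results of these data known. From each list every called gene was named, at most 4 per comparison with the largest log2 fold and 1 FPKM or more in a group, and the 5 genes most alike to SEN1. TPS9, bZIP1, bZIP11 and ATG8H are not analysed here. Sequences and motifs are from the RefSeq genome TAIR10.1, whose nuclear gene starts or ends matched the authors' loci in 38.1% of 27240 genes. Python 3.11.15, numpy 2.4.6, pandas 2.3.3 and scipy 1.17.1 were used. The alternatives were other q thresholds, an adjustment within 1 table, an FPKM minimum, pseudocounts and rescaling.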

Additional observations from a re-analysis of the deposited data

How the results depend on the processing

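The counts of called genes moved with the q threshold. With q under 0.1 in place of 0.05, 5 of the 9 genes were called for shade in control, DIN11 and BCAT2 being added to the 3. With q under 0.01, 1 of the 9, SEN1, was called for shade in CER6pro>>axr3-1, against 2. Of the list genes, q under 0.01 left 5 called for shade in control (against 9) and 4 for genotype in shade (against 7), and q under 0.1 gave 5 for shade in CER6pro>>axr3-1 (against 3). The other 27 of 32 recounts stayed within 1.5 times of the reported count. Among them, adjustment within 1 table left 5 list genes called for genotype in shade (against 7), ending the calls of GWD1 and TRE1. Of 108 recomputed folds of the 9 genes, 106 moved by less than their standard error and 0 changed sign. The exceptions were DIN11 folds with a pseudocount of 1 FPKM, 0.99 for shade in control and 1.16 for genotype in W. Rescaling moved a fold by at most 0.02. Of 27 entries for the differences of shade folds, those with the standard error from p left the difference itself unchanged by construction. Among the differences recomputed with a pseudocount of 1 FPKM or with rescaling, 1 changed sign. That was TPS8, at -0.000786 after rescaling against 0.02, far inside its standard error. With an FPKM minimum of 1 in place of 5, 1 of the 5 genes most alike to SEN1, ADS1, was shared.

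No paired analysis was possible because the tables hold 1 pooled value per group, and for the same reason leaving out single libraries was not run. Depth per library is unknown, so no limit from counting can be given for the low levels of DIN11, or of BCAT2 in control in W.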
